A study of Caenorhabditis elegans with 2 samples.

Results

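Small nucleolar RNAs (snoRNAs) are short noncoding RNAs that guide chemical changes of other RNAs. Box C/D snoRNAs direct methylation of ribose and box H/ACA snoRNAs direct the change of uridine to pseudouridine, mainly in ribosomal and small nuclear RNA. In animals many snoRNA genes lie inside introns of protein-coding host genes and are released from the spliced intron, while others have promoters of their own. Transfer RNA genes, by comparison, carry internal promoter elements called the A box and the B box, which the factor TFIIIC recognises for RNA polymerase III. In budding yeast the snoRNA gene SNR52 is transcribed by RNA polymerase III from such boxes placed ahead of the mature RNA.

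The regions described here are the candidate peaks at snoRNA genes in a chromatin immunoprecipitation and sequencing (ChIP-seq) experiment on NHR-76, a nuclear hormone receptor of Caenorhabditis elegans. The 2 biological replicates form 1 group, and there is no other condition. Both come from strain OP203, of genotype unc-119(ed3) III with the transgene wgIs203, which adds GFP and FLAG to the C terminus of NHR-76; the immunoprecipitated material was chromatin of whole embryos of mixed stages, of both sexes and of unknown age. The transgene is carried by every animal of the line, so no sample without the tagged receptor is among those compared, and whether the signal at snoRNA genes needs the receptor was not tested.

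A candidate is a peak of the authors' pooled list for both replicates in the ce11 genome. A snoRNA candidate was a nuclear candidate whose summit lay within 500 bp of an annotated snoRNA gene and not within 500 bp of a tRNA gene. The rule found 242 of the 29979 nuclear candidates, out of 30000 in all. These 242 were nearest to 197 snoRNA genes, and 43 of those genes were nearest to more than 1 candidate. Candidates at 1 gene share their neighbourhood and are not independent of each other. Seen from the genes, 207 of the 346 nuclear snoRNA genes (59.8%) had a candidate within 500 bp. Only 2 candidates were left out because of a tRNA gene, near C16D9.10 (signal 5.61) and M163.14 (signal 2.86).

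The sequences below are 171 bases around the summits of the 6 strongest snoRNA candidates, shown so that their bases can be compared. They are RefSeq sequence of WBcel235, the assembly that ce11 names, read 5′ to 3′ on the strand of the snoRNA gene, with the summit in the middle. Capitals mark an A box followed by a B box, the A box being searched as TGGC, any 2 bases, then AGTGG, and the B box as GGTTCGA, any 2 bases, then CC, with at most 2 mismatches among the 9 fixed letters of each. In C51F7.4 the capitals mark a B box with no mismatch and without a matching A box, and ZK994.7 held neither.
ZK994.7 (chrV:8500505-8500675, plus strand): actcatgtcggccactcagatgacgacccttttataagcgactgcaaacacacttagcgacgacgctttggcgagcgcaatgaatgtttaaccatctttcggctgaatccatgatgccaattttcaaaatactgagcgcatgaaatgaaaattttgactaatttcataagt
C51F7.4 (chrV:12303526-12303696, plus strand): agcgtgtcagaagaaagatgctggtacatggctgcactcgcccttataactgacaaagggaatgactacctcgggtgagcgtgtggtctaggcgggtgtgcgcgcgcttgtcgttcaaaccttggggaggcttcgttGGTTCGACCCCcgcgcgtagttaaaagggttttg
T03F7.8 (chrV:11314135-11314305, plus strand): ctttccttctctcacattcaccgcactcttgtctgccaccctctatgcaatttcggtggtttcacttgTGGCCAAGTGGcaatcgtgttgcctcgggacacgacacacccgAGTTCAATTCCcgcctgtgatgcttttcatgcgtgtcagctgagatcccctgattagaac
T06C12.16 (chrV:15873907-15874077, minus strand): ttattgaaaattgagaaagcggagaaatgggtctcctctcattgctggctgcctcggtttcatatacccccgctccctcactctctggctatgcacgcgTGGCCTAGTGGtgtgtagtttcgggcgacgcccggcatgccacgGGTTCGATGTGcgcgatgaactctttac
C27H5.9 (chrII:7184031-7184201, minus strand): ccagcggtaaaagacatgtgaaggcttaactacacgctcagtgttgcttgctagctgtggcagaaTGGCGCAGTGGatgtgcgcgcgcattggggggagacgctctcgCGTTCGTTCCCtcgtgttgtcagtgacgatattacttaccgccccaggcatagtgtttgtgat
W03C9.9 (chrII:11960755-11960925, plus strand): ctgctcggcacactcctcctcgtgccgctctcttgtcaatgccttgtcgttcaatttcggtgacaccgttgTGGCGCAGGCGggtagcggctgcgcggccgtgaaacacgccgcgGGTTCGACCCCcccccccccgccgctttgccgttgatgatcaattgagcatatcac

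In 4 of these 6 windows an A box and a B box followed each other 43 or 44 bp apart on the strand of the snoRNA gene, ahead of or at its annotated 5′ end. T03F7.8, T06C12.16 and C27H5.9 matched the A box without a mismatch and the B box with 2, and W03C9.9 matched the B box without a mismatch and the A box with 2. The next strongest candidate with a pair, shown for a gene in an intron of a host on the same strand, had 1 mismatch in each box. It lay 80 bp upstream of C05D2.15.
C05D2.15 (chrIII:5602174-5602344, minus strand): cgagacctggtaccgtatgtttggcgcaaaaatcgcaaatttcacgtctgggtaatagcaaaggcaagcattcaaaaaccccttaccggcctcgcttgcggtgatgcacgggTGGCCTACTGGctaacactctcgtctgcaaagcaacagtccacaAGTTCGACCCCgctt

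For contrast, windows with no pair and no exact box are shown for H09I01.2, K07C10.2 and K08F11.8. H09I01.2 has a strong candidate, and K07C10.2 the strongest candidate with its summit past the 3′ end. The K08F11.8 candidate has its summit more than 100 bp past the gene. Each window did hold an inexact box within the mismatch limit used for pairs, left in lower case. This was a B box in H09I01.2 (ggtttgatgcc) and K07C10.2 (ggttcgcaggc), and an A box in K08F11.8 (tggccgattgg).
H09I01.2 (chrIV:8253010-8253180, plus strand): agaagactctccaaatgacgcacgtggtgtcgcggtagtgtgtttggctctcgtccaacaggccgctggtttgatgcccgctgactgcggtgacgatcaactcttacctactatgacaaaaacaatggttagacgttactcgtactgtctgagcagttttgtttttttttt
K07C10.2 (chrII:11167220-11167390, plus strand): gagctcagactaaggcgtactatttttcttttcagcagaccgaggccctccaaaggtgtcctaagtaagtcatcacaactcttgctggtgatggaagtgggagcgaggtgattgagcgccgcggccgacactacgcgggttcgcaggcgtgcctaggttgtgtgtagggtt
K08F11.8 (chrIV:4705331-4705501, minus strand): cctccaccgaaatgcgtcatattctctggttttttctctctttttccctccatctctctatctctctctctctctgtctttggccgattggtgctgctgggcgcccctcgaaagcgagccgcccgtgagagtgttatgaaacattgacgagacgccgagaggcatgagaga

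The signal value is the authors' own score per peak, its scale is not stated, and it can be compared only within 1 list. Across the 242 snoRNA candidates the median signal was 5.86, with quartiles at 4.06 and 8.30 and a range of 2.83 to 47.9. Across all 29979 nuclear candidates the median was 4.31, with quartiles at 3.45 and 5.74. The snoRNA candidates thus lay higher in the list as a set, and 167 of them (69.0%) exceeded the median of all nuclear candidates. Among the 1000 strongest candidates of the pooled list were 47 snoRNA candidates (19.4%), against 3.27% of all nuclear candidates. The 352 candidates within 500 bp of a tRNA gene had a median of 5.63. The lowest snoRNA candidate, with a signal of 2.83, lay near F25G6.21 in slc-17.8.

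The authors' final list holds 140 peaks, and these are the 140 candidates with the highest pooled signal, so that being final restates the signal. Of the snoRNA candidates, 22 (9.09%, exact interval 5.79% to 13.4%) overlapped a final peak, against 0.447% of all nuclear candidates. Of the 22, 21 are final peaks themselves, and 1 candidate with a signal of 4.16 near Y43F8C.22 only touched one. Near tRNA genes 9 of 352 candidates (2.56%) overlapped a final peak. The lowest final snoRNA candidate had a signal of 20.5 and the highest not on the list 19.7.

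ZK994.7 carried the strongest snoRNA candidate, with a pooled signal of 47.9, a signal of 9.14 in the replicate 1 list and 38.5 in the replicate 2 list. The peak lies on chromosome V at 8500420 to 8500759 (ce11), its summit 11 bp inside the gene. The gene is 67 bp long and sits in an intron of 341 bp of pxn-1, a peroxidasin gene, on the same strand. C51F7.4, which starts on the last base of an exon of the FERM domain gene frm-7, followed with 42.4 in the pooled list, 9.93 in replicate 1 and 33.5 in replicate 2. Its peak is on chromosome V at 12303441 to 12303780, with the summit 12 bp inside the gene. The same peak is also the highest within 500 bp of C51F7.3, a snoRNA gene in an intron of frm-7 on the same strand. C51F7.3 starts at 12303708, so the summit, at 12303611, lies upstream of it. The peaks of ZK994.7 and C51F7.4 both ranked high in each replicate, at 64 and 53 in replicate 1 and at 22 and 27 in replicate 2.

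T03F7.8 had a signal of 41.1 in the pooled list, 9.10 in replicate 1 and 33.0 in replicate 2. It lies in an intron of the cuticlin-like gene cutl-18, on the opposite strand, and the peak, on chromosome V at 11314050 to 11314389, has its summit 38 bp upstream of the snoRNA gene. C27H5.9, in an intron of pdl-1 and again on the opposite strand to its host, had 33.7 in the pooled list, 10.9 in replicate 1 and 21.9 in replicate 2. Its peak spans 7183946 to 7184285 on chromosome II, and its summit was also 38 bp upstream. A snoRNA that runs against its host cannot be cut from the host's intron in the usual way, since the host transcript holds the other strand. Whether this bears on the signal at these genes was not tested.

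T06C12.16 and W03C9.9 overlap no protein-coding gene. T06C12.16 had 34.2 in the pooled list, 3.79 in replicate 1 and 30.2 in replicate 2, with the summit 66 bp upstream in a peak on chromosome V at 15873822 to 15874161. W03C9.9 had 31.7 in the pooled list, 6.96 in replicate 1 and 24.5 in replicate 2, with the summit 58 bp upstream in a peak on chromosome II at 11960670 to 11961009. The replicates placed T06C12.16 differently, at rank 1439 in replicate 1 and rank 35 in replicate 2.

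The other 15 final snoRNA candidates had pooled signals from 20.5 to 27.5. ZK265.10 on chromosome I, at no host, had 27.5 with its summit 65 bp upstream. H09I01.2 had 25.9 with its summit on the first bases of the gene and was absent from the replicate 1 list. C05D2.15 in the MADF domain gene madf-11 had 25.4, and Y71F9AM.7 in cogc-3, a Golgi complex subunit gene, had 24.96. F37F2.4, with 24.1, was the one final candidate far from its gene, its summit 310 bp upstream and 253 bp from the 5′ end of the protein-coding gene F37F2.2. T02E1.9, which overlaps spe-12 on the other strand, had 23.2, and D1046.6 in cfim-2, a subunit gene of an mRNA cleavage factor, had 22.9.

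ZK546.18, which overlaps the Mediator subunit gene mdt-4, had 22.7, and F30H5.4, without a host, had 22.6. T08B2.13 in fars-1, a phenylalanyl-tRNA synthetase gene, had 22.6. C04G6.12, on the other strand of an intron of the kinase gene mpk-2, had 21.7 and F38E11.14 in cng-3, a cyclic nucleotide-gated channel gene, had 21.6. ZK20.9 and F32E10.10, both without a host, had 20.6 each, and Y43F8C.22 in Y43F8C.7 had 20.5. Counting overlapping protein-coding genes on either strand as hosts, the hosts of the final candidates are thus varied in kind, and 8 of the 21 have none.

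**Figure D1:**
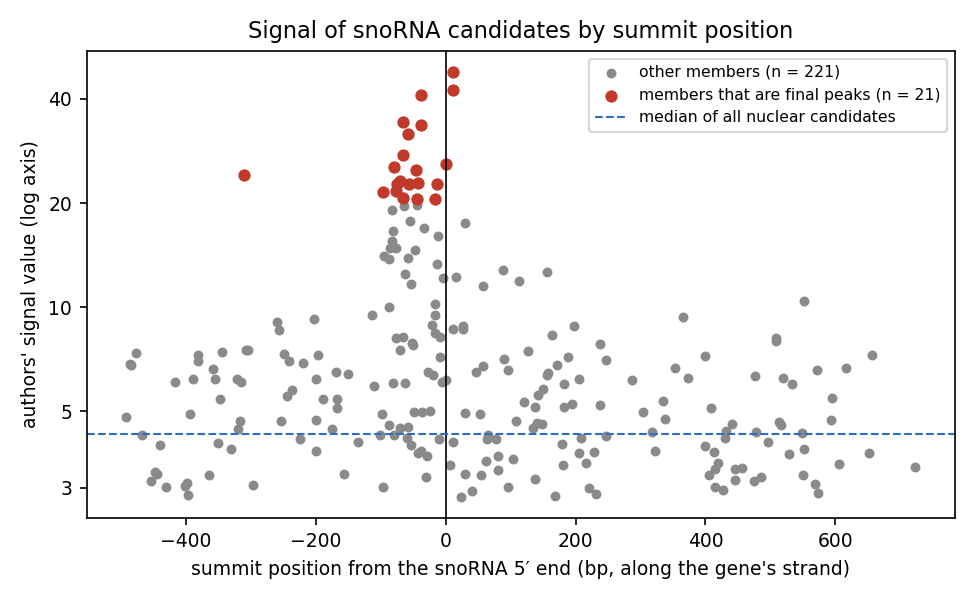
Authors' pooled signal (log axis) of the 242 snoRNA candidates against the position of the summit from the 5′ end of the nearest snoRNA gene, in bp along the gene's strand. Red points are the 21 final peaks, grey points the other 221, and the dashed line is the median of all nuclear candidates (4.31). High signals gather in the 100 bp before the 5′ end.

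Signal varied with the position of the summit relative to the gene. The 126 with the summit upstream of the gene had a median signal of 6.84, the 41 with the summit inside it 5.15 and the 75 downstream 4.59. Of the final peaks, 18 were upstream, 3 inside and 0 downstream, and the strongest downstream candidate, at K07C10.2, had 12.8. The plot of signal by summit position shows that the upstream excess is narrow. Between 51 and 100 bp upstream 38 candidates had a median of 13.8, and between 1 and 50 bp upstream 30 candidates had a median of 9.20. Farther out the values dropped, with a median of 5.42 for 15 candidates over 100 and up to 200 bp upstream and 5.74 for 43 candidates over 200 bp upstream. On the other side of the gene, 10 candidates 1 to 50 bp downstream had a median of 6.34 and 39 candidates over 200 bp downstream had 4.36.

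Numbers of summits were highest in the same stretch. Bins of 50 bp held 38 summits from 100 to 51 bp upstream and 30 from 50 to 1 bp upstream, and between 1 and 16 in each of the other bins from 500 bp upstream to 499 bp past the 5′ end. The mean density of nuclear candidates over the genome gives 5.17 per bin for 346 genes. The 68 candidates up to 100 bp upstream, with a median position of 54.5 bp before the 5′ end, had a median signal of 11.9, against 4.93 for the other 174. They held 17 of the 21 final peaks. Among the 42 snoRNA candidates with a signal above 12, 34 were in this stretch, 5 had the summit inside the gene, 2 downstream and 1, at F37F2.4, farther upstream.

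Box pairs were looked for after the sequences of the strongest candidates had been seen, so the counts that follow describe the set and are no independent support for it. A pair was an A box and, 25 to 70 bp after its start, a B box on the same strand, each with at most 2 mismatches. Run on the 612 annotated nuclear tRNA genes, the search found a pair on the gene's own strand in 557 (91%) and on the other strand in 0. Within 100 bp of the summit, 35 of the 242 snoRNA candidates (14.5%, exact interval 10.3% to 19.5%) held a pair on either strand, against 1.5% of all nuclear candidates. Of the 352 candidates within 500 bp of a tRNA gene, whose own promoters hold these boxes, 144 (40.9%) held a pair. In 33 of the 35 the pair was on the strand of the snoRNA gene, and in 2 on the opposite strand alone.

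The 33 candidates with a pair on the snoRNA strand had a median signal of 16.03 and held 11 of the 21 final peaks. The other 209 had a median of 5.12. Box pairs and summit position overlapped, since 29 of the 33 had the summit upstream of the gene. On either strand, 31 of the 68 candidates up to 100 bp upstream held a pair, against 4 of the other 174. The contrasts by pair and by position were therefore not separated. In the pair group the A box began at a median of 14 bp before the summit and the B box 30 bp after it. The summit lay between the start of the A box and the end of the B box in 20 of the 33. Among the 10 final candidates with no such pair were ZK994.7 and C51F7.4, and 6 of the 10 still had their summit within 100 bp upstream of the gene. Not every pair went with a high signal, since M106.6 in mix-1 (signal 4.96) and F19H8.6 in mltn-9 (signal 5.002) held one and were listed in neither replicate.

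The strictness of the box search sets these numbers. With 1 mismatch allowed per box, 13 snoRNA candidates (5.37%) held a pair, all 13 on the snoRNA strand, against 0.454% of all nuclear candidates. With 3 allowed, 128 (52.9%) did, against 32.3%, and the snoRNA strand no longer stood out as clearly, with 93 on it and 60 on the other strand. Single boxes without a mismatch were counted too. The A box was in 13 windows (5.37%) against 0.307% of all nuclear candidates, and the B box in 8 (3.31%) against 0.62%.

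Box C and 2 other short motifs were searched on both strands of the same windows. Box C of the C/D snoRNAs, searched as ATGATGA or GTGATGA, was in 24 windows (9.92%) against 9.09% of all nuclear candidates. The half-site AGGTCA, which many nuclear receptors bind, was in 8 (3.31%) against 5.55%, and the GATA site TGATAA in 32 (13.2%) against 16.8%. The exact intervals of all 3 shares hold the value of all nuclear candidates, with 6.46% to 14.4% for box C, 1.44% to 6.41% for AGGTCA and 9.22% to 18.2% for TGATAA.

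The same search was then run from the genes, whether or not they had a candidate. In the 150 bp before the 5′ end and the first 10 bp of the gene, 39 of the 346 nuclear snoRNA genes (11.27%) held a pair on their own strand, and 4 held one on the opposite strand. The 150 bp past the 3′ end, searched as a comparison, held a pair on the gene's strand at 1 gene and on the opposite strand at 2. The boxes kept to a narrow stretch, with the A box starting 74 to 45 bp before the 5′ end and the B box 28 to 6 bp before it. Their medians were 58 and 13 bp before the 5′ end, and 34 of the 39 pairs were 42 to 45 bp apart. None of the 39 pairs lay within 500 bp of an annotated tRNA gene, and 29 overlapped no other annotated noncoding gene or pseudogene. Of the rest, 8 overlapped an annotated ncRNA gene and 4 an annotated pseudogene, with the pairs at T08B2.13 and D1046.6 counted under both.

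**Figure D2:**
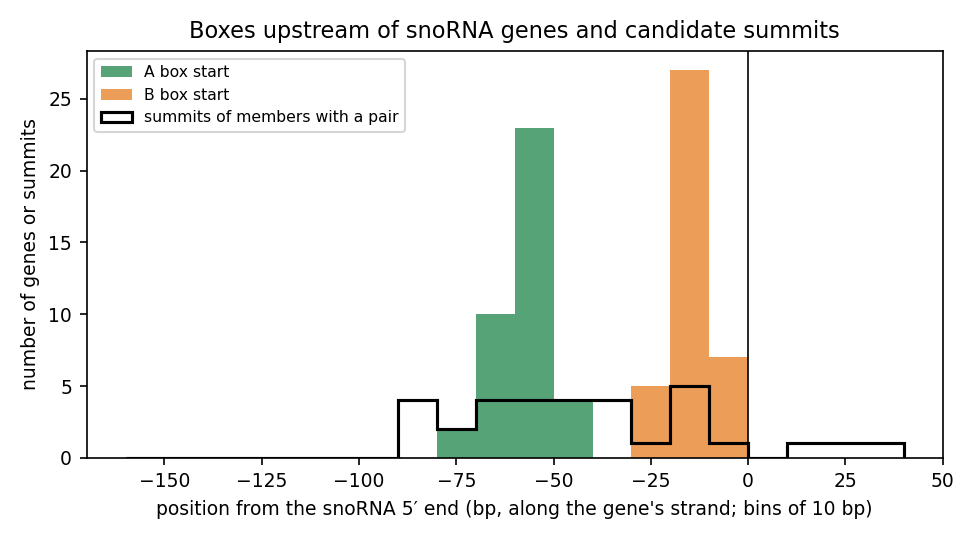
Start of the A box (green) and of the B box (orange) at the 39 snoRNA genes with a pair, and summits of the candidates with a pair that fall in the range shown (black outline), in bins of 10 bp from the 5′ end of the gene. The A boxes gather around 58 bp and the B boxes around 13 bp before the 5′ end, and the summits spread over both.

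Of the 39 genes with a pair, 34 (87.2%, exact interval 72.6% to 95.7%) had a snoRNA candidate within 500 bp, against 173 of the 307 genes without one (56.4%, interval 50.6% to 62.0%). The highest signal at a gene had a median of 15.8 over the 34 and of 5.80 over the 173. A final peak lay at 11 of the 39 genes with a pair and at 12 of the 307 without. These 23 genes share 21 final peaks. C51F7.3 and C51F7.4, both without a pair, have the same peak, and C27H5.10, without a pair, is counted through the peak at C27H5.9, which has one. The genes with a pair were shorter, with a median length of 91 bp against 132 bp. Of the 5 with a pair and no candidate, 3 are on the X chromosome (Y59E1B.14, C53B7.8 and K09E9.5) and 2 on chromosome V (D1054.17 and W08G11.6), and the pair at Y59E1B.14 has no mismatch in either box. T23B12.13 and R12E2.17 held a pair with a highest signal of only 2.84 and 2.95.

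**Figure D3:**
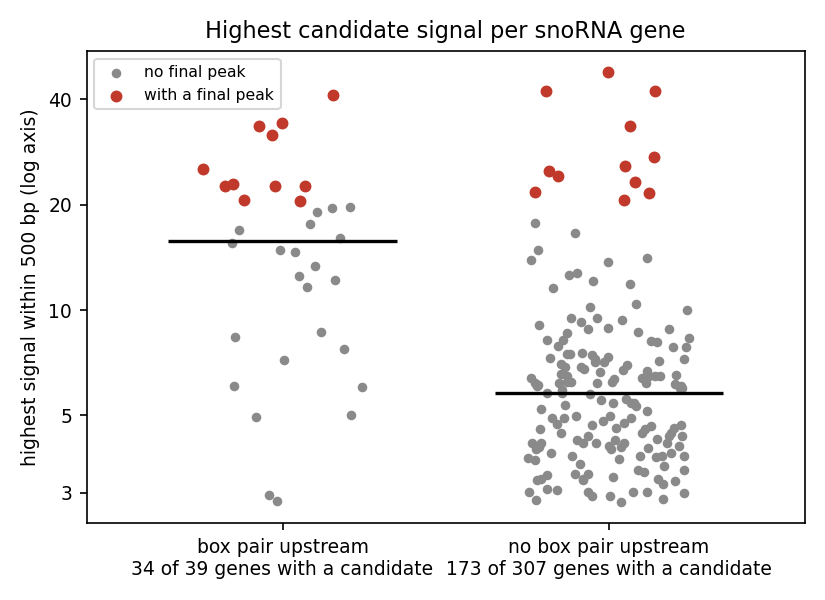
Highest pooled signal (log axis) of a candidate within 500 bp, per snoRNA gene, for genes with and without a box pair upstream. Each point is a gene, red where a final peak is near, and bars are medians (15.8 with a pair and 5.80 without).

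Host genes were considered next. The nearest snoRNA gene was intronic for 114 candidates, overlapped an exon for 34 and was independent of any protein-coding gene for 94. Their median signals were 5.72, 5.29 and 6.12, close to each other beside the spread within each class. Overlap with a final peak was found for 11, 3 and 8 candidates. Introns that held the nearest snoRNA gene ran from 82 to 17902 bp with a median of 354 bp. Within introns, 93 candidates at snoRNA genes on the host's strand had a median of 5.33, and 20 at genes on the opposite strand 6.16.

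A box pair went with higher signals in the 2 larger classes alike, without the position of the summit being held equal. At intronic snoRNA genes 18 candidates with a pair on the snoRNA strand had a median of 15.9, against 4.93 for the 96 without. At independent genes 13 with a pair had a median of 16.03, against 5.36 for the 81 without. The class that overlaps exons held just 2 candidates with a pair, at 14.7 (W01C9.6) and 22.7 (ZK546.18). Pairs were found upstream of 21 of the 169 intronic genes and 16 of the 124 independent ones.

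**Figure D4:**
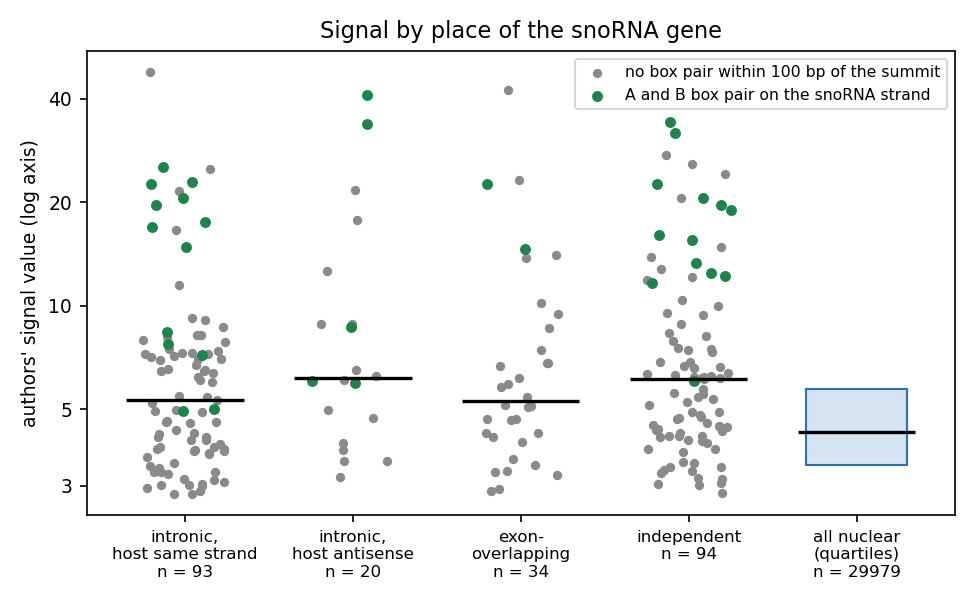
Authors' pooled signal (log axis) of snoRNA candidates by the place of the nearest snoRNA gene, green where a box pair lies on its strand within 100 bp of the summit; black bars are medians. The blue box gives the quartiles of all 29979 nuclear candidates, and 1 candidate whose hosts lie on both strands is not drawn.

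In all 116 hosts, on either strand, were counted, and 25 of them had at least 2 snoRNA candidates. Ribosomal protein genes are classical snoRNA hosts, and 10 of them held 15 candidates. Those 15 had signals from 3.28 to 9.08 with a median of 4.58, none was final and none had a box pair on the snoRNA strand. None of the 19 snoRNA genes in ribosomal protein hosts had a pair upstream. The highest was at F54E7.10 in rps-12, with its summit 259 bp upstream of the snoRNA gene. Other candidates in exons or introns of hosts numbered 133, with a median of 5.46.

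The host with the most was ulp-4, a SUMO protease gene, with 5 candidates of signal 3.23 to 6.97 around C41C4.16 and C41C4.17. The stonin gene unc-41 had 3 around C27H6.5, with signals of 7.27 to 8.65. The gene nol-56, which encodes a core protein of box C/D particles, is itself a host and had 3 candidates of 3.02 to 6.46 at K07C5.10 and K07C5.11. The chromatin remodelling gene ssl-1 had 3 of 2.90 to 5.80, and the ATPase gene cdc-48.1 had 3 of 3.71 to 5.42. None of these hosts with 3 or more candidates had a final peak. The other 20 had 2 each, and their higher signals ran from 3.30 in rps-29 to 42.4 in frm-7.

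Medians differed little by gene strand or by the neighbourhood of a promoter. Candidates at snoRNA genes on the plus strand numbered 120 with a median of 5.77, and on the minus strand 122 with a median of 6.03. A protein-coding 5′ end lay within 500 bp of 73 snoRNA candidates, whose median was 6.17, and the other 169 had a median of 5.46. By chromosome, the medians were 5.67 on I, 6.24 on II, 4.70 on III, 6.21 on IV, 6.62 on V and 4.27 on X. The X chromosome held 16 candidates, none of them final, the highest at 9.38, and only 1 was in the replicate 1 list.

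Replicate support was counted as an overlap of at least 1 bp with a peak of each replicate's own list. The lists differ in length, with 7516 peaks for replicate 1 and 30000 for replicate 2. Replicate 1 listed 77 snoRNA candidates (31.8%), against 16.7% of all nuclear candidates. Replicate 2 listed 197 (81.4%), against 69.2%. Both listed 64 (26.4%), against 9.25%, and 32 (13.2%) were in neither list, against 23.4%. Because the pooled list contains the reads of both replicates, a strong candidate is more likely to be listed in each.

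Support differed by position and boxes in the same direction as the pooled signal, so these shares are not separate evidence on either. Of the 68 candidates up to 100 bp upstream, 34 (50%) were in both lists, against 30 of the other 174 (17.2%). Of the 33 with a box pair on the snoRNA strand, 19 were in both, against 45 of the other 209. Of the 21 final candidates, all were in the replicate 2 list, at ranks from 22 to 613, and 19 in the replicate 1 list, at ranks from 40 to 3885. H09I01.2 and F32E10.10 were the 2 not listed in replicate 1. Of the 21, 15 ranked among the top 140 of replicate 2 and 8 among the top 140 of replicate 1.

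**Figure D5:**
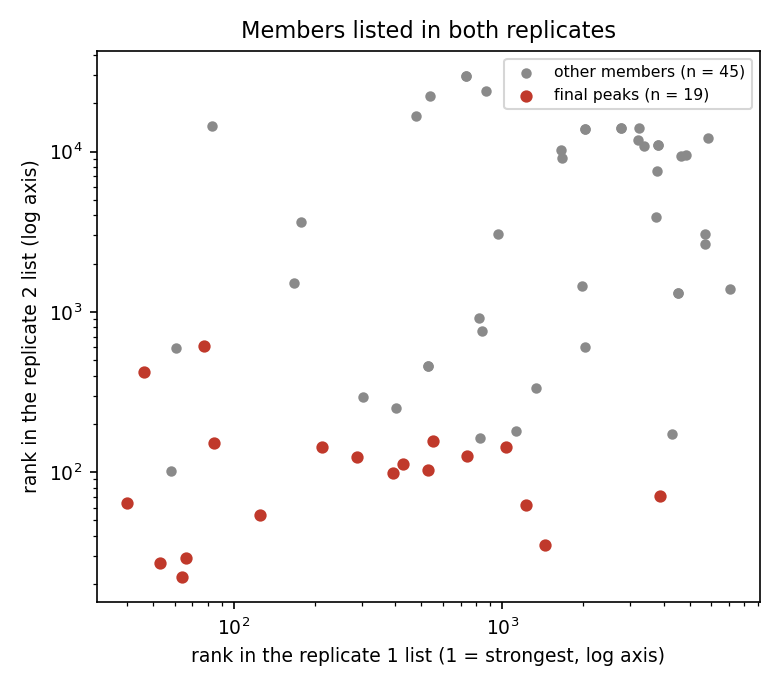
Rank by the authors' signal in the replicate 1 list and in the replicate 2 list (both log axes, 1 is strongest) for the 64 snoRNA candidates in both lists. The 19 final peaks (red) lie at rank 613 or better in replicate 2 but reach rank 3885 in replicate 1.

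Among the 64 candidates in both lists the signals of replicate 1 and replicate 2 had a Spearman rho of 0.456 across regions, and of 0.173 over the 45 that are not final. Regions are not replicates, share their libraries and are ranked by lists of different length, so the values are a description only. The 2 lists set some candidates far apart. Y75B12B.12 ranked 61 in replicate 1 and 592 in replicate 2, while F38E11.14 ranked 3885 in replicate 1 and 71 in replicate 2. F07A11.15, with a pooled signal of 14.1, ranked 83 and 14498.

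The genes for the proteins of snoRNA particles were looked at beside the snoRNA genes. Of 12 such genes, 9 (75%) had a candidate within 500 bp of a 5′ end, against 36.6% of protein-coding genes, and none of the 9 overlapped a final peak. Among the box C/D proteins, fib-1 (fibrillarin, the methyltransferase) had the highest signal at 10.8, followed by nol-58 at 7.43, nol-56 at 6.07 (the candidate also counted at K07C5.11) and snu-13 at 3.94. Among the box H/ACA proteins, Y48A6B.3 (NHP2) had 7.47 and nola-3 (NOP10) 4.30, and dkc-1 (dyskerin, the pseudouridine synthase) and garr-1 (GAR1) had none. Of the assembly and maturation factors, ruvb-1 had 7.57, tgs-1 4.76 and ruvb-2 4.30, and dao-5 had none.

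The distance limit cuts through a continuous range. Just inside 500 bp lay candidates at F47G4.9 (492 bp, signal 4.80) and Y40B1A.6 (486 bp, 6.87), and just outside it candidates at Y53F4B.47 (504 bp, 5.15) and B0213.18 (510 bp, 4.27). One candidate with a signal of 16.3 lay 517 bp from C06A1.9 and is not among the 242.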

How the data were processed

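NHR-76 ChIP-seq was measured in 2 biological replicates of whole mixed-stage embryos, 1 group. Per the deposited README files, the authors made a list of peaks and background for each replicate and for both replicates pooled, from alignments against a control, and derived a final list from them by the irreproducible discovery rate (IDR) procedure. No source used here names the aligner, the peak caller or the threshold of that procedure, and the sequencing depth is unknown. Column 7 of the deposited lists holds the authors' signal value, on a scale that is not stated. By the narrowPeak format of the deposited lists, column 9 is a −log10 q-value, which entered no result.

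Summits, counted from 1, were placed against Ensembl release 115 genes of WBcel235. Peaks are 340 bp wide for all 242 snoRNA candidates. A snoRNA gene was intronic if it lay wholly in an intron of a protein-coding transcript, on either strand. Boxes were searched with numpy 2.4.6 and tables were made with pandas 2.3.3 under Python 3.11.15. Exact Clopper-Pearson intervals (scipy 1.17.1, 95%) cover counting error over regions only. Distances, overlaps and the box search were checked on simulated data with known answers.

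There is 1 group and no contrast, so no test was run. The snoRNA candidates, gene lists and motifs were chosen with earlier results of these data known, and the box pair after seeing sequences. Genes named are the final snoRNA candidates, hosts with several candidates, the lowest, those at the distance limit and the genes of snoRNA particle proteins; genes named for a low signal, ranks far apart between replicates or ribosomal protein hosts were chosen after their values were seen. Alternatives were other distances, single replicates, stricter lists, other overlaps, windows and mismatch limits.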

Additional observations from a re-analysis of the deposited data

How the results depend on the processing

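Of 205 values under alternatives, 112 stayed within the interval of the reported value, or within 1.5 times it for counts, and 93 moved. The highest signal stayed higher at genes with a pair than at genes without in each alternative run. The pair was defined after strong candidates of these same data were seen, so this order is no independent support. Among the 1000 strongest candidates the gap was small and the intervals overlapped. The medians there were 19.7 (16.03 to 22.65) with a pair and 17.7 (13.89 to 23.16) without. The order of intronic and independent genes turned round among the 1000 strongest candidates. Distances of 100, 200 and 1000 bp gave 131, 160 and 381 snoRNA candidates, 36.1%, 43.4% and 74.6% of snoRNA genes with one, 31.3%, 25.6% and 10.8% of summits inside the gene, 24.4%, 20.6% and 9.45% with a box pair on the snoRNA strand, 51.9%, 42.5% and 17.8% up to 100 bp upstream, and candidates at 30%, 38.1% and 73% of genes without a pair. Within 100 bp, the final share was 15.3%, the replicate 1 share 42%, the A box share 9.92%, the median signal 7.02 (1.63 times that of all nuclear candidates, against 1.36 times at 500 bp), 6.53 at intronic, 8.24 at independent genes and 6.36 for the highest signal of genes without a pair. Within 200 bp, the median was 6.28 (1.46 times) and 7.06 at independent genes.

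The 1000 and the 5000 strongest candidates held 47 and 96 snoRNA candidates, 44.7% and 21.9% of them final, 78.7% and 56.2% in replicate 1, 100% and 94.8% in replicate 2, with median signals of 19 and 9.76, 21.1 and 8.67 at intronic genes, 15.8 and 12 at independent genes, and 19 and 13.7 within 100 bp. They reached 14.2% and 26.6% of snoRNA genes, 61.5% and 71.8% of genes with a pair and 8.14% and 20.8% of genes without, whose highest signal had medians of 17.7 and 8.86. A boxes were in 27.7% and 13.5%, pairs in 51.1% and 29.2%, and 76.6% and 49% lay up to 100 bp upstream. Among the 1000, the B box was in 10.6%, the median was 1.59 times that of all, and 38.3% were intronic.

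With 1 replicate alone (without replicate 1 or without replicate 2, each list on its own scale), the number of snoRNA candidates ranged from 91 to 248, the final share from 10.1% to 24.2%, the median signal from 3.57 to 4.83, at intronic genes from 3.39 to 4.68, at independent genes from 3.97 to 5.13 and within 100 bp from 4.17 to 6.26. Without replicate 1, 29% of the remaining list's snoRNA candidates were in the replicate 1 list, and without replicate 2, 72.5% were in the replicate 2 list. Summits inside the gene ranged from 12.1% to 16.5%, genes with a candidate from 24.3% to 57.8%, A boxes from 5.24% to 11%, genes with a candidate among those with a pair from 53.8% to 82.1% and among those without from 20.5% to 54.7%, and the median highest signal from 4.85 to 13.1 with a pair and from 3.07 to 4.96 without.

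Counting summits within 100 bp as shared gave 23.1% in replicate 1 and 64% in replicate 2, and an overlap over 50% of the length 24.8% and 74.8%. With hosts on the same strand only, 38.8% were intronic, and measured from the gene's midpoint 9.5% had the summit inside. In windows of 50 bp, 8.26% held a pair on the snoRNA strand. With 1 or 3 mismatches per box, chosen after seeing the data, 5.37% or 38.4% of candidates and 4.05% or 31.8% of genes had a pair; with 3, candidates were at 70% of genes with a pair, with a median highest signal of 8.84. The cause of these shifts was not tested, beyond the stricter lists holding only high signals by construction. Depth is unknown, no input or untagged strain was analysed here, and intervals on shares take regions as independent, which neighbouring candidates are not.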
